A study of Homo sapiens with 6 samples.

Results

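Transcripts of 7 enzymes of the pentose phosphate pathway were followed in 6 RNA-seq libraries of U937, an established human monocytic cell line. The members, H6PD, PGLS, PGD, RPIA, RPE, TKT and TALDO1, were found by symbol and Ensembl identifier, and all 7 were among the 18798 genes of the count table and among the 14797 genes with enough counts to be tested. The Control group held 3 lines transduced with control plasmids. The ΔNSPs group held 3 independent clones transduced with the ΔNSPs plasmid, in which CTSG, ELANE and PRTN3, the genes of 3 neutrophil serine proteases, had been depleted at once. All 6 cultures were kept under geneticin at 500 ug/ml, so the Control lines share transduction and drug with the clones, and each ΔNSPs library stands for 1 clone. The genes were chosen by pathway and with their CPM in these 6 libraries known, as cytosolic enzymes set against H6PD. The differences between groups below are therefore a description of these libraries. No p-value is given for a single member, and the counts of members called by each tool stand beside the share of all genes called and support nothing.

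The pentose phosphate pathway takes glucose 6-phosphate out of glycolysis. Its oxidative branch yields NADPH, the reducing agent for lipid synthesis, for glutathione and thioredoxin recycling and for the phagocyte oxidase of myeloid cells, and ends in ribulose 5-phosphate. Its non-oxidative branch interconverts sugar phosphates and supplies ribose 5-phosphate for nucleotides. PGLS, PGD, RPIA, RPE, TKT and TALDO1 act mainly in the cytosol, whereas H6PD works in the lumen of the endoplasmic reticulum. There it carries out both the dehydrogenase and the lactonase step on glucose 6-phosphate that enters through a transporter, and feeds a separate pool of NADPH.

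H6PD and PGD lie near each other on chromosome 1 and had unlike profiles over the 6 libraries, so the 250 bases upstream of their RefSeq starts (GRCh38.p14, plus strand) are shown for both, written 5′ to 3′, with GC boxes (GGGCGG, either strand) and CCAAT boxes (CCAAT, either strand) in capitals.
H6PD chr1:9239597-9239846: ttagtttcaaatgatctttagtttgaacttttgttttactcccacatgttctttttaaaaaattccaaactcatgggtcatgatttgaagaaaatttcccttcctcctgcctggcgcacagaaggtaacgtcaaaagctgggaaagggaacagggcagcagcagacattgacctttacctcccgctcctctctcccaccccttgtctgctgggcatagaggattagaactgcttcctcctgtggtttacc
PGD chr1:10398814-10399063: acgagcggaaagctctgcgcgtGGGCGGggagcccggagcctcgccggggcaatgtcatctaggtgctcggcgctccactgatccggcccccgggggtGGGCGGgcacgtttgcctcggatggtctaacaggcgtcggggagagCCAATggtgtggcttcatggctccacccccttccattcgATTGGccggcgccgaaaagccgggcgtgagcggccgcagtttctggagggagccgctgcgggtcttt
The H6PD window belongs to a start that lies 5072 bases downstream of the GENCODE start of the gene, so it does not show the outermost promoter. RefSeq gave a window for all 7 members. Over the full windows of 300 bases, which run 50 bases past the start, GC content was 47.3% for H6PD, 65.3% for PGLS, 68.7% for PGD, 63% for RPIA, 63.7% for RPE, 70.7% for TKT and 75% for TALDO1, against a median of 58.7% over 35116 promoters. A GC box was present in 6 of the 7 windows, the exception being H6PD, and in 45% of all promoters. A CCAAT box was present in 5 of 7 and in 34.6% of all promoters. The core of the antioxidant response element, the site of the oxidative stress factor NRF2 (TGACNNNGC, either strand), was present in PGD and RPE, 2 of the 7, and in 13.3% of all promoters. These matches describe letters in 1 window per gene, and none of them overlapped another of these motifs in the windows shown.

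The library totals ran from 11476619 to 13782854 counts, which puts a floor of 3 counts at 0.214 to 0.26 CPM (counts scaled to 1000000 per library after correction of the totals), far below every member in every library. The depleted genes were lower in every clone than in every Control line. CTSG was at 1895, 2474 and 2752 CPM in Control lines 1 to 3 and at 135.7, 110.3 and 45.2 CPM in clones 1 to 3. ELANE was at 1084, 969.6 and 1325 CPM in the Control lines and at 41.9, 1.89 and 27.8 CPM in the clones. PRTN3 was at 538.5, 146.9 and 244 CPM in the Control lines and at 0.855, 63.2 and 55.3 CPM in the clones. In edgeR, CTSG passed an adjusted p of 0.05 (0.0215), while ELANE (0.145) and PRTN3 (0.217) did not. A gene without an edgeR call can thus still differ widely between the groups. Of 12 myeloid markers, 12 were in the table, with a summed level of 1550 to 1720 CPM in Control and 1370 to 2290 CPM in ΔNSPs. The summed levels of T cell markers and of fibroblast and endothelial markers did not overlap between the groups and were higher in ΔNSPs. T cell markers were at 0.596 to 0.724 CPM in Control and 1.28 to 4.21 CPM in ΔNSPs, with 2 of 6 markers in the table. B cell markers summed to 46.9 to 85.4 CPM in Control and 26.7 to 67.7 CPM in ΔNSPs (4 of 6 in the table), erythroid and megakaryocyte markers to 99.9 to 174 and 110 to 151 CPM (5 of 8), epithelial markers to 1.7 to 2.39 and 1.51 to 2.28 CPM (4 of 6), and fibroblast and endothelial markers to 50.7 to 59.3 and 60.1 to 75.4 CPM (6 of 8), with PECAM1, at up to 65.1 CPM, the highest of its markers. No presence of another cell type is read from these sums, and that of the fibroblast and endothelial list leans on PECAM1. The part of these markers in the differences below was not tested, and in bulk RNA fewer cells of a kind and less RNA per cell cannot be told apart.

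H6PD was lower in every clone than in every Control line, and TKT was the other member whose groups did not overlap. PGLS, PGD, RPIA, RPE and TALDO1 overlapped between the groups. Non-overlap with the clones below thus held for 2 of 7 members, where 11.7% of all tested genes showed it, and non-overlap with the clones above held for 0 of 7, against 12.2% of all genes (23.9% in either direction). In edgeR 0 of 7 members passed an adjusted p of 0.05, where 0.0203% of all tested genes passed (3 genes). Without adjustment, 2 of 7 were lower at p under 0.05, where 8.6% of all genes were, and 0 were higher, where 9.23% of all genes were. DESeq2 called 1 of 7, H6PD, which was lower, against 1.95% of all genes called lower and 3.82% called in either direction, and limma voom called 0 of 7, against 0.0135%. Because the members were chosen with this comparison known, nothing is read from these counts. The median log2 fold change was -0.01 over the 7 members and 0.002 over all tested genes, with 4 members negative and 3 positive.

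**Figure D1:**
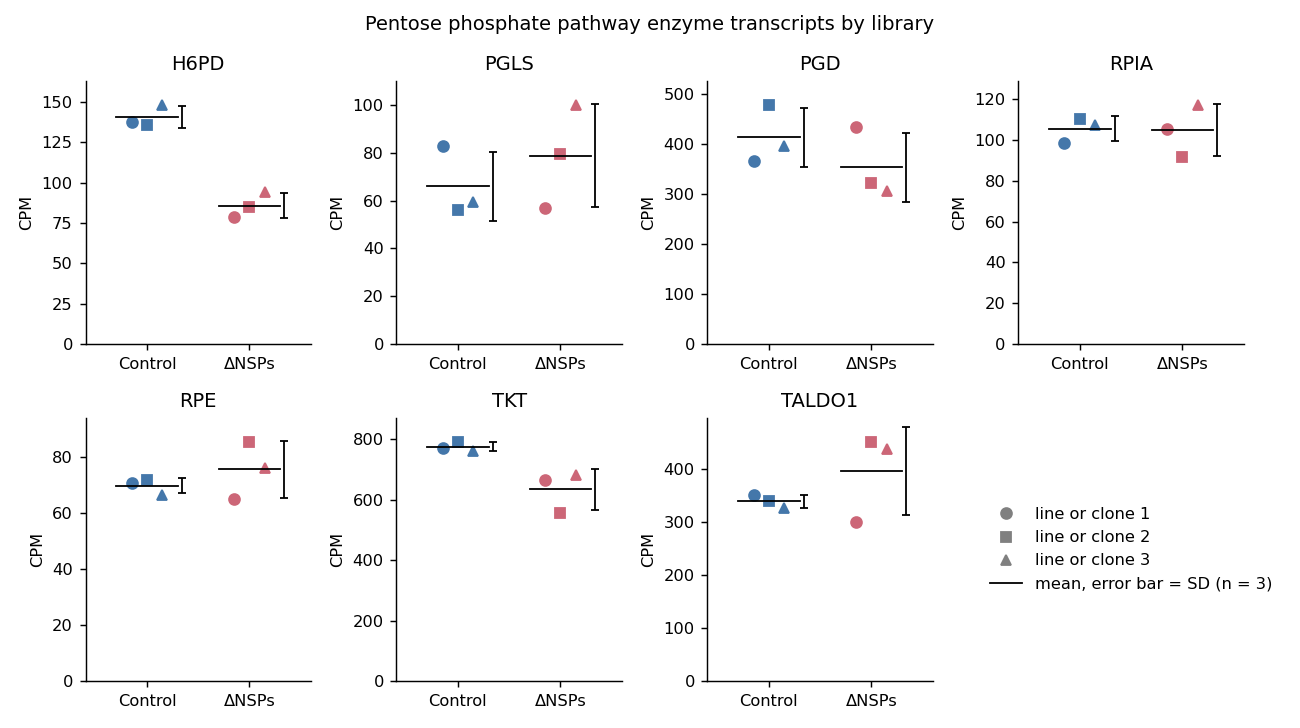
CPM of each enzyme transcript in the 6 libraries, with marker shape for the line or clone number, a line at the group mean and an error bar of SD (n = 3). H6PD lies at 135.8 to 148 CPM in Control and 78.7 to 94.1 CPM in ΔNSPs, while clone 1 stands apart from clones 2 and 3 for PGLS, PGD and TALDO1.

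H6PD (ENSG00000049239; chromosome 1, 9234775 to 9271337, plus strand) encodes hexose 6-phosphate dehydrogenase, the luminal enzyme. Its transcript was at 137.9, 135.8 and 148 CPM in Control lines 1, 2 and 3 and at 78.7, 84.7 and 94.1 CPM in ΔNSPs clones 1, 2 and 3. Every clone was below every Control line, and the gap between the highest clone and the lowest Control line was wider than the range within either group. The means were 140.6 ± 6.68 CPM in Control and 85.8 ± 7.75 CPM in ΔNSPs (SD, n = 3 each), so that ΔNSPs stood at 61.0% of Control, with a log2 fold change of -0.71 (SE 0.11). The counts behind these values ran from 1104 to 1874 per library. Within-group spread was small: its SD on the log2 scale was 0.103, below the median of 0.17 over 10443 genes averaging 8 CPM or more. Of those genes, 96.1% had a smaller absolute fold change than H6PD. Because H6PD was chosen with these values known, neither the spread nor this share is support for a difference.

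PGLS (ENSG00000130313; chromosome 19, 17511629 to 17521288, plus strand) encodes 6-phosphogluconolactonase, which opens the lactone in the cytosol. It was at 82.6, 56.0 and 59.3 CPM in Control lines 1 to 3 and at 57.0, 79.6 and 99.97 CPM in clones 1 to 3. Control line 1 lay with clones 2 and 3, and clone 1 lay with Control lines 2 and 3. The log2 fold change was 0.26 (SE 0.22), and the within-group SD of 0.357 on the log2 scale was larger than that of 89.2% of the genes averaging 8 CPM or more. An annotated lincRNA and an antisense gene overlap PGLS on the other strand, and since the strand setting of the counting is not given in the sources used here, reads of these genes cannot be told from PGLS with certainty.

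PGD (ENSG00000142657; chromosome 1, 10398592 to 10420144, plus strand) encodes 6-phosphogluconate dehydrogenase, which makes NADPH and ribulose 5-phosphate. It was at 365.8, 478.7 and 396.8 CPM in Control lines 1 to 3 and at 433.6, 322.7 and 306.7 CPM in clones 1 to 3. Clones 2 and 3 were the lowest libraries, while clone 1 lay above Control lines 1 and 3. The log2 fold change was -0.22 (SE 0.16).

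Among the non-oxidative enzymes, TKT (ENSG00000163931; chromosome 3, 53224707 to 53256052, minus strand), transketolase, moves 2-carbon units between sugar phosphates. It was at 773, 792.7 and 763.3 CPM in Control lines 1 to 3 and at 664.6, 557.4 and 681.5 CPM in clones 1 to 3. All clones were below all Control lines, and the Control lines lay closer together than the clones, with a coefficient of variation of 1.93% against 10.6%. The mean in ΔNSPs was 81.7% of that in Control, with a log2 fold change of -0.29 (SE 0.11). TALDO1 (ENSG00000177156; chromosome 11, 747329 to 765024, plus strand), transaldolase, which moves 3-carbon units, was at 350.4, 338.7 and 327 CPM in Control lines 1 to 3 and at 300.4, 451.3 and 437.1 CPM in clones 1 to 3. Clones 2 and 3 were the highest libraries and clone 1 was the lowest, which gave a log2 fold change of 0.23 (SE 0.16) with the groups overlapping. The CPM ratio of TKT to TALDO1 was 2.21 to 2.34 in the Control lines, 2.21 in clone 1, 1.24 in clone 2 and 1.56 in clone 3.

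The isomerase and the epimerase that handle ribulose 5-phosphate spanned the smallest ranges of the 7 members over the 6 libraries. RPIA (ENSG00000153574; chromosome 2, 88691644 to 88750935, plus strand), which makes ribose 5-phosphate, was at 98.5, 110.3 and 107 CPM in Control lines 1 to 3 and at 105.4, 91.7 and 117 CPM in clones 1 to 3. The clones spanned the Control range on both sides, with a log2 fold change of -0.01 (SE 0.12). RPE (ENSG00000197713; chromosome 2, 210002565 to 210022259, plus strand), which makes xylulose 5-phosphate, was at 70.6, 71.8 and 66.5 CPM in Control lines 1 to 3 and at 64.8, 85.3 and 76.0 CPM in clones 1 to 3. Clone 1 was the lowest library and clone 2 the highest, with a log2 fold change of 0.11 (SE 0.12). From the lowest to the highest of the 6 libraries the level of RPIA differed by a factor of 1.28 and that of RPE by 1.32, against 1.88 for H6PD and 1.79 for PGLS. RPE counts are uncertain, because the annotation holds 6 processed pseudogenes and the coding copy RPEL1, and KANSL1L overlaps the gene on the other strand. KANSL1L was in the count table and the copies were not. Related copies outside the count table are annotated for other members too: 1 processed pseudogene each for PGD and RPIA, and 2 coding copies for TKT.

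**Figure D2:**
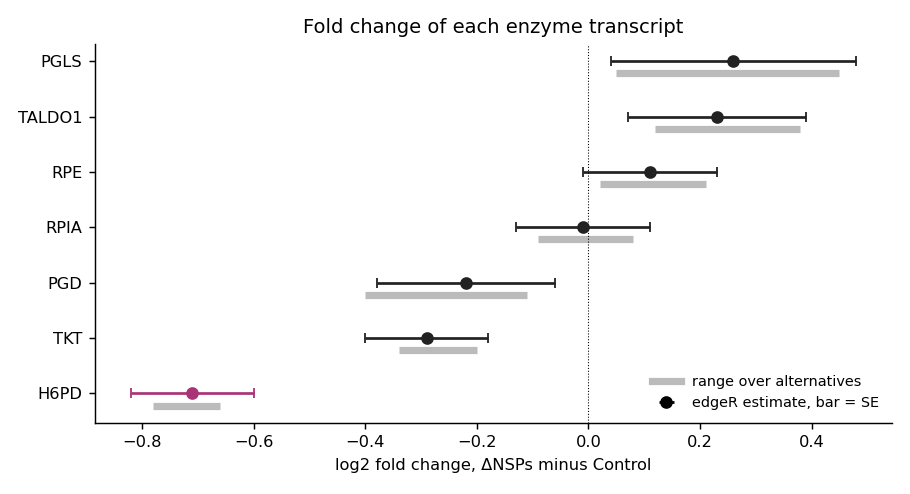
Log2 fold change of each enzyme transcript, ΔNSPs minus Control, from edgeR (point, bar = SE), and below it the range over the alternative analyses (grey). H6PD lies at -0.71 with a range of -0.78 to -0.66, apart from the other 6 members, which lie between -0.29 and 0.26.

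The members were also placed beside each other after division by the length of the principal annotated transcript, which runs from 1028 bases for PGLS to 9146 bases for H6PD. On this scale of CPM per kilobase, TALDO1 (mean level 273 over the 6 libraries), TKT (234) and PGD (203.7) formed the top of the order and overlapped with their neighbours in that order. PGLS (70.4) and RPIA (56.8) followed and overlapped with each other. RPE (28.2) was below RPIA in every library, and H6PD (12.4) was below RPE in every library, at 15.4 ± 0.731 CPM per kilobase in Control and 9.38 ± 0.847 in ΔNSPs. With all annotated exons merged as the length, chosen after the data were seen, PGD came before TALDO1 and TKT, and RPIA came before PGLS, while RPE and H6PD stayed in the last places. H6PD made up 1.6% to 1.87% of the summed CPM per kilobase of the 7 enzymes in Control and 1.05% to 1.12% in ΔNSPs.

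**Figure D3:**
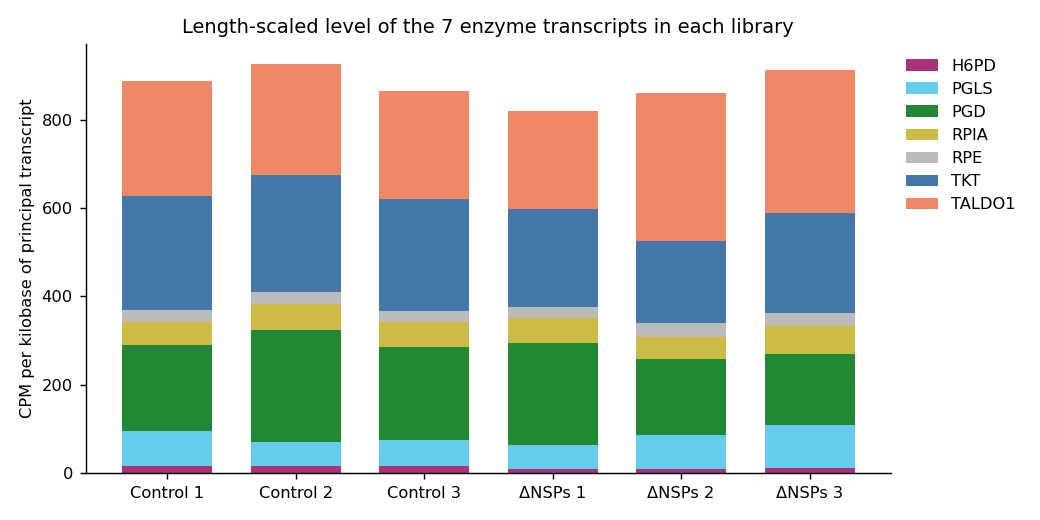
CPM per kilobase of principal transcript for the 7 enzymes, stacked, in each of the 6 libraries. The summed height runs from 820.3 to 925.9, the H6PD layer at the base is thinner in the ΔNSPs libraries, and the TALDO1 layer is thickest in clones 2 and 3.

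Set against the cytosolic enzymes, H6PD was at 7.92%, 7.35% and 8.62% of their summed CPM in Control lines 1 to 3 and at 4.84%, 5.33% and 5.47% in clones 1 to 3. The groups did not overlap on this ratio. Their summed CPM, without H6PD, was 1741, 1848 and 1720 in the Control lines and 1626, 1588 and 1718 in the clones, and the highest clone lay just under the lowest Control line. Relative to the mean log2 level of the 6 other members in the same library, the H6PD difference was -0.71. The CPM ratio of H6PD to PGD overlapped between the groups, at 0.284 to 0.377 in Control and 0.181 to 0.307 in ΔNSPs, because PGD varied within both groups.

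The genes around H6PD on chromosome 1 gave the local background. Within 2 Mb of H6PD, 32 other tested genes averaged 8 CPM or more, PGD among them at a distance of 1.13 Mb. Their median log2 fold change was -0.03, and by library their median log2 ratio to the Control mean was 0.03, -0.09 and -0.06 in clones 1 to 3. H6PD itself was at -0.84, -0.73 and -0.58 in these clones. Of the 32 genes, 4 lay lower in all clones than in all Control lines and 4 higher, where 11.7% and 12.2% of all tested genes did. Of the same 32, 0 were called by edgeR and 1 by DESeq2, against 0.0203% and 3.82% of all tested genes. Relative to the median of this window the H6PD difference was -0.68. The nearest tested coding genes on either side were also lower on average: GPR157, 106 kb before H6PD, was at -0.52 on the log2 scale (SE 0.20), and SPSB1, 21.5 kb after it, was at -1.08 (SE 0.65). By edgeR their adjusted p-values were 0.254 and 0.411. Both overlapped between the groups, with SPSB1 at 5.02, 15.8 and 16.7 CPM in Control lines 1 to 3 and 11.7, 4.01 and 1.94 CPM in clones 1 to 3. The next genes of the window are named after their values were seen. Before GPR157 lay SLC2A5 at -0.36 (SE 0.18) and ENO1 at -0.32 (SE 0.13), and after SPSB1 lay SLC25A33 at 0.3 (SE 0.1). The window median therefore does not describe the genes closest to H6PD. Whether these neighbours share a cause with H6PD was not tested.

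**Figure D4:**
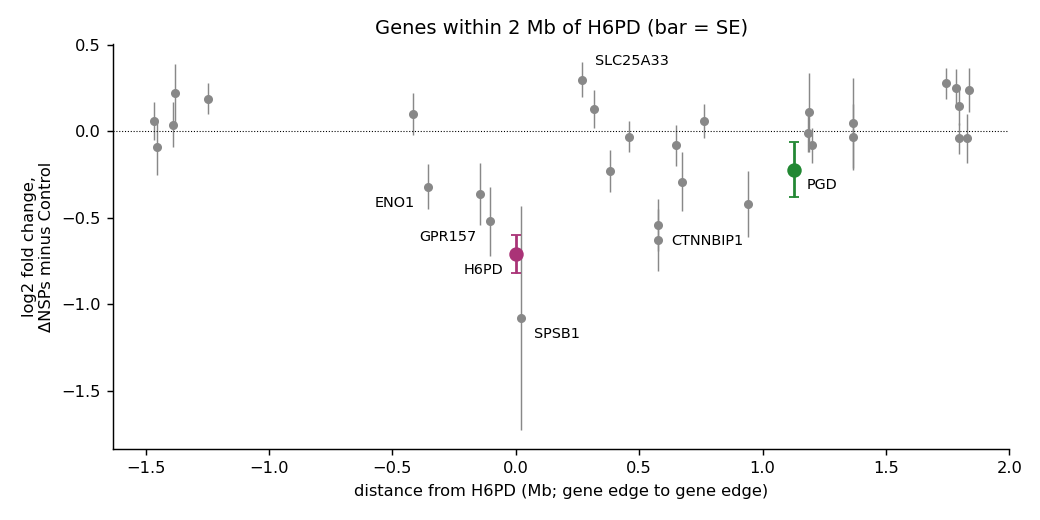
Log2 fold change (ΔNSPs minus Control, bar = SE) of genes averaging 8 CPM or more within 2 Mb of H6PD, against their distance from H6PD in Mb. H6PD (purple) at -0.71 and PGD (green) at -0.22 are marked, and SPSB1 at -1.08 is the 1 gene of the window with a lower value than H6PD.

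Around PGLS on chromosome 19 the median over 74 such genes was 0.30 on the log2 scale, with medians of 0.07, 0.39 and 0.44 in clones 1 to 3 and 0.11, -0.13 and -0.03 in Control lines 1 to 3. PGLS had the same order as its window within each group but not over the 6 libraries together, at -0.21, 0.27 and 0.60 in the clones and 0.33, -0.24 and -0.15 in the Control lines. For PGLS, clone 1 lay below Control line 3 and clone 2 below Control line 1, whereas for the window median they lay above. The part of the chromosome 19 window in the PGLS values was not tested. The median was 0.08 over 35 genes around TKT, 0.03 over 38 around TALDO1 and -0.04 over 40 around PGD, and RPIA and RPE had 5 such neighbours each.

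The expression pattern of H6PD over the 6 libraries was compared with that of 9336 other coding genes averaging 8 CPM or more. The highest Pearson correlations of log2 CPM were with BRD3 (0.994), TBC1D22B (0.989), ZNF619, GLUL and S100PBP (0.988 each), and 52 genes reached 0.95, while 82 genes had a correlation at least as strong with a negative sign. All 5 were lower in every clone than in every Control line, which the measure favours, since the 6 libraries share the group difference. GLUL, which encodes glutamine synthetase, was at 1048 ± 44.8 CPM in Control and 615 ± 57.6 CPM in ΔNSPs, a log2 fold change of -0.77 (SE 0.10). ZNF619 had -0.67 (SE 0.15), the closest of the 5 to the -0.71 of H6PD, whereas BRD3, TBC1D22B and S100PBP had -0.17, -0.32 and -0.26. Among the other enzymes of the pathway the correlation with H6PD was 0.84 for TKT, 0.36 for PGD and 0.16 for RPIA, and -0.24 for PGLS, -0.33 for RPE and -0.33 for TALDO1.

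A list of 17 endoplasmic reticulum genes was read next, called partners of H6PD here. It covered glucose 6-phosphate transport and hydrolysis, luminal oxidation and reductases, and 12 of its genes were tested. Whether each gene draws on the glucose 6-phosphate or NADPH pool of H6PD was not tested, so the name stands for the list only. In edgeR 0 of 12 passed with adjustment over all genes, against 0.0203% of all tested genes. Without adjustment 3 were lower and 0 higher at p under 0.05, against 8.6% and 9.23% of all tested genes. DESeq2 called 0 of 12, against 3.82%, and limma voom 0, against 0.0135%. The latter also called 0 in the lists that follow. The list's median log2 fold change was -0.19, against 0.002 over all genes, with 10 negative and 2 positive. SLC37A4, the transporter that brings glucose 6-phosphate into the endoplasmic reticulum, was at 72.7, 73.2 and 69.6 CPM in Control lines 1 to 3 and at 61.2, 49.9 and 55.1 CPM in clones 1 to 3. The groups did not overlap, and the difference was -0.37 on the log2 scale (SE 0.11), with an edgeR adjusted p of 0.181. CYB5R3, a cytochrome b5 reductase, was at 104.9 ± 9.64 CPM in Control and 81.0 ± 4.02 CPM in ΔNSPs (edgeR adjusted p = 0.18), also without overlap. ERO1B, a luminal thiol oxidase, was at 14.4 ± 1.29 CPM and 9.51 ± 2.24 CPM (edgeR adjusted p = 0.22), without overlap and lowest in clone 1. PRDX4, a luminal peroxiredoxin and the gene of this list with the highest level per kilobase, overlapped between the groups, at 133, 206 and 203 CPM in Control lines 1 to 3 and 188, 81.7 and 84.0 CPM in clones 1 to 3. HSD11B1, whose product uses the NADPH made by H6PD to activate glucocorticoids, was not analysed here. Without clone 1, edgeR called 3 genes of the list, SLC37A4 and PRDX4 among the lower and CYB5R4, a cytochrome b5 reductase of the endoplasmic reticulum named after its values were seen, among the higher. Under that setting H6PD was the 1 member called, where 6.17% of all genes were.

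**Figure D5:**
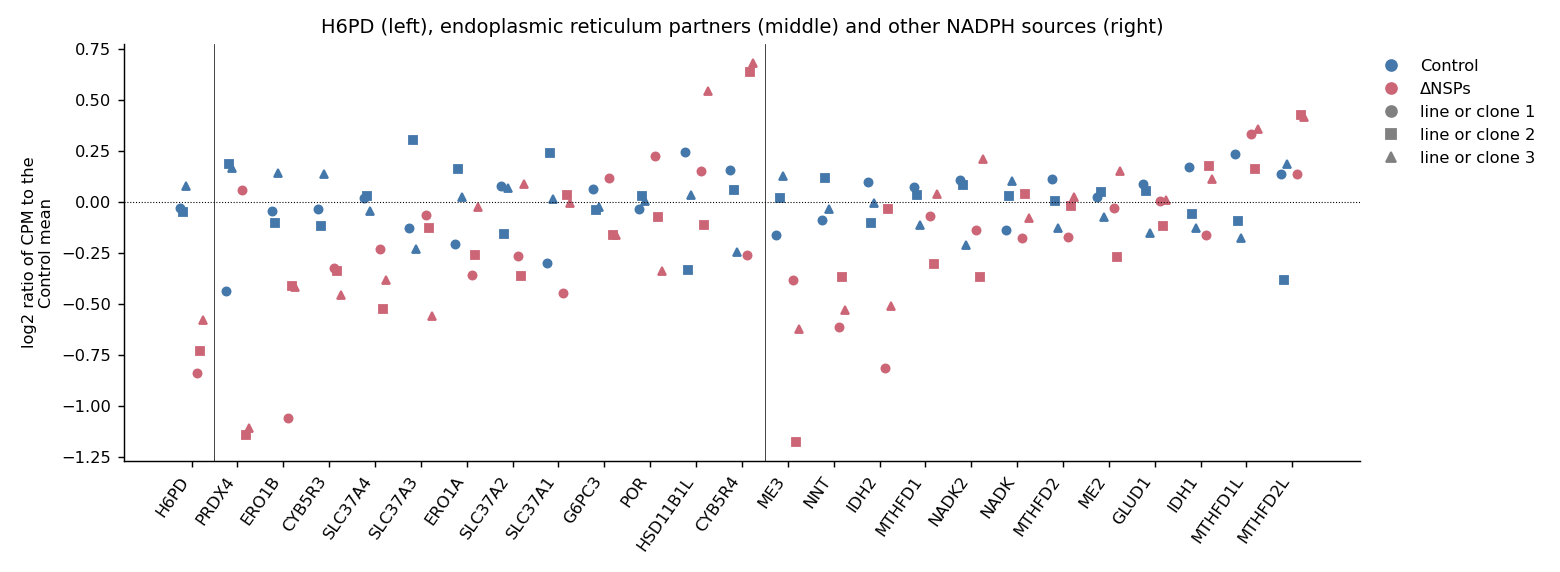
Log2 ratio of CPM to the Control mean for H6PD, the 12 tested endoplasmic reticulum partner genes and the 12 tested genes of other NADPH sources, each ordered by fold change within its list. Circles, squares and triangles are line or clone 1, 2 and 3. The clones lie apart from the Control lines for H6PD, ERO1B, CYB5R3, SLC37A4, ME3 and NNT.

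Other sources of NADPH held 12 tested genes of 15 listed. In edgeR 0 passed, and 2 were lower and 0 higher at p under 0.05 without adjustment, against 8.6% and 9.23% of all tested genes. DESeq2 called 1, NNT, which was lower, against 1.95% of all tested genes called lower. The median log2 fold change of the list was -0.06. NNT, the mitochondrial transhydrogenase that makes NADPH from NADH, was at 164, 188.8 and 170.2 CPM in Control lines 1 to 3 and at 113.9, 134.9 and 120.8 CPM in clones 1 to 3. Its groups did not overlap, and the difference was -0.50 on the log2 scale (SE 0.11), with an adjusted p of 0.167 by edgeR and 0.00621 by DESeq2. ME3, the mitochondrial NADP-dependent malic enzyme, was at 16.1 ± 1.61 CPM in Control and 9.96 ± 2.64 CPM in ΔNSPs (edgeR adjusted p = 0.2). IDH2, the mitochondrial isocitrate dehydrogenase and the highest of the list per kilobase, overlapped between the groups at 312 ± 21.9 CPM and 233.6 ± 64.8 CPM. Its clones read 177, 304.5 and 219 CPM.

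Side reactions of the pathway and the use of ribose 5-phosphate were read from another pair of lists. Of 14 listed genes for paralogs, pentose salvage and related sugars, 10 were tested, with 0 edgeR and 0 DESeq2 calls. Without adjustment 1 was lower and 0 higher at p under 0.05 in edgeR, against 8.6% and 9.23% of all tested genes. The median over the 10 was -0.03 and the mean 0.03 on the log2 scale. DERA, deoxyribose phosphate aldolase, was at 44.8 ± 1.82 CPM in Control and 38.1 ± 1.73 CPM in ΔNSPs without overlap (-0.24 on the log2 scale, SE 0.10; edgeR adjusted p = 0.276). DCXR, dicarbonyl and xylulose reductase and the highest of the list per kilobase, was at 110.6 ± 3.70 CPM and 124.8 ± 5.90 CPM, higher in all clones than in all Control lines (0.17 on the log2 scale, SE 0.09; edgeR adjusted p = 0.359). The transketolase-like genes TKTL1 and TKTL2 and the epimerase copy RPEL1 were not in the count table. Downstream, 15 genes that turn ribose 5-phosphate into phosphoribosyl pyrophosphate and nucleotides gave 0 edgeR and 0 DESeq2 calls. Without adjustment 0 were lower and 1 higher at p under 0.05 in edgeR, against the same shares of all tested genes. The median over the 15 was -0.01 and the mean 0.04. The higher gene, ADSL, adenylosuccinate lyase, was at 3.21 ± 0.58 CPM in Control and 5.85 ± 1.87 CPM in ΔNSPs (edgeR adjusted p = 0.211). APRT, the highest of the list per kilobase, was at 122.9 ± 6.11 CPM and 124 ± 9.15 CPM. PRPS2, a phosphoribosyl pyrophosphate synthetase named after its values were seen, was at 136.8, 156.8 and 143.2 CPM in Control lines 1 to 3 and at 152, 81.4 and 67.3 CPM in clones 1 to 3, and was the gene of the list that edgeR called without clone 1.

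Targets of NRF2, a factor known to raise PGD, TKT and TALDO1 along with antioxidant genes, were read library by library. Of 20 listed genes outside the pathway 18 were tested, with 0 edgeR calls. Without adjustment 6 were lower and 0 higher at p under 0.05 in edgeR, against 8.6% and 9.23% of all tested genes. DESeq2 called 2, both lower, against 1.95% of all tested genes called lower. The median over the 18 was -0.37 on the log2 scale, with 14 negative and 4 positive. In all clones against all Control lines, 2 of the 18 lay lower and 1 higher, against 11.7% and 12.2% of all tested genes. The naming rule took genes by small p and by level, so genes of the list with little difference are not named. The median log2 level of the 18 relative to the mean of the 6 libraries was -0.19, 0.49 and 0.22 in Control lines 1 to 3 and 0.00, -0.26 and -0.26 in clones 1 to 3. Control line 2 was thus the highest and clones 2 and 3 the lowest, which was also the case for PGD, whereas TALDO1 was highest in clones 2 and 3. TKT was highest in Control line 2 and lowest in clone 2, with clone 1 next and clone 3 the highest of the clones. SLC7A11, the cystine importer, was at 21.4, 54.4 and 35.7 CPM in Control lines 1 to 3 and at 16.4, 16.0 and 16.8 CPM in clones 1 to 3 (edgeR adjusted p = 0.171, DESeq2 adjusted p = 0.00736). OSGIN1, an oxidative stress response gene, was at 6.47, 26.5 and 19.1 CPM and at 7.34, 4.39 and 6.23 CPM, so that Control line 1 lay within the range of the clones (edgeR adjusted p = 0.188, DESeq2 adjusted p = 0.0199). SRXN1, sulfiredoxin, was at 2.32 ± 1.14 CPM in Control and 0.696 ± 0.366 CPM in ΔNSPs (edgeR adjusted p = 0.2). Its groups overlapped, with Control line 1 at 1.02 CPM and clone 1 at 1.07 CPM, and its counts were only 4 to 39 per library. FTL, the ferritin light chain and the highest of the list per kilobase, was at 5702 ± 1786 CPM and 3639 ± 815.5 CPM (edgeR adjusted p = 0.251), and Control line 1 at 3641 CPM lay among the clones.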

How the data were processed

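The deposited values are raw counts, unnormalized integers by Ensembl identifier, for 3 Control and 3 ΔNSPs libraries of U937. Per the submitters' processing notes, the authors worked on GRCh38.p12 with HTSeq 0.11.1, SAMtools 1.5.9, HISAT2 2.0.0 and FastQC. Annotation release, strand setting and filters: not given in the sources used here. The lowest summed count of a listed gene over the 6 libraries was 10. Symbols, positions and lengths came from GENCODE v29 (GRCh38) for 18771 of 18798 genes, and promoter sequences from RefSeq (GRCh38.p14).

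Grouping and numbering follow the titles. Libraries of a group differed beyond sampling noise (lowest chi-square per degree of freedom 6.37). Nothing in the labels says whether lines were cultured separately at extraction, so p-values measure the spread between these samples. Groups were compared in R 4.3.3 by the two-sided quasi-likelihood test of edgeR 4.0.16 (TMM, filterByExpr), with Benjamini-Hochberg adjustment over 14797 genes and a threshold of 0.05. CPM used TMM-scaled totals, errors are SD over 3 libraries, and a pseudocount of 0.5 CPM was added before taking log2 for correlations, medians by library and within-group SD. On data simulated for this comparison with 14797 genes, 66% of the genes changed 2-fold and 95% of those changed 4-fold were found by edgeR, and 4.73% of calls were false. The simulated noise was independent between genes and libraries, so these shares are not the recovery to expect in the libraries themselves. Floors cover counting error only.

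Alternatives were RLE and upper quartile factors, other filters, DESeq2 1.42.0, limma 3.58.1 (voom with sample quality weights), the replicate number as a block, and leaving out each library. The members and gene lists were chosen with earlier results of these data known. Beside the 7 members and the 3 targets, the rule for named genes took, in each of 5 lists, the gene with the highest CPM per kilobase and up to 4 genes with an edgeR p under 0.05, the 5 genes most correlated with H6PD, and its nearest tested coding neighbours; genes named outside this rule are marked.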

Additional observations from a re-analysis of the deposited data

How the results depend on the processing

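The H6PD log2 fold change of -0.71 ran from -0.78 to -0.66 over 15 alternatives and stayed negative in all of them; leaving out 1 library at a time gave the same range. PGLS, PGD, RPE, TKT and TALDO1 kept their sign in all 13 alternatives run for each, and RPIA, at -0.01, did so in 10 of 13. The number of members called was 0 in edgeR, 1 in DESeq2 (H6PD), and 0 to 1 when 1 library was left out, the 1 being H6PD without ΔNSPs clone 1. Over all genes, edgeR called 3, DESeq2 called 565, and leaving out 1 library gave 0 to 928, the highest without clone 1. With the replicate number as a block edgeR called 0 genes. The numbers do not pair the libraries, since same-numbered libraries had correlations of deviations of -0.432, -0.161 and -0.14, so this block is given for completeness and changed no call of a member. DESeq2 called 1 gene among the other NADPH sources and 2 among the NRF2 targets, where edgeR called 0. Leaving out 1 library gave 0 to 1 calls among nucleotide synthesis genes and 0 to 3 among the endoplasmic reticulum partners, the highest in both without clone 1, and 0 in the other lists. The cause of these shifts was not tested. With merged exons as gene length, 5 of the 7 members changed places in the order of levels. In the simulation 66% of 2-fold changes were recovered, with noise drawn independently for each library. The simulation held no clone set apart and no change under 2-fold, where the H6PD difference lies. Among the depleted genes edgeR called CTSG (adjusted p = 0.0215) but not ELANE (0.145) or PRTN3 (0.217). The simulated recovery is therefore not carried over to these data.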
